A study of Mus musculus with 6 samples.

Results

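Interferon-stimulated genes are the transcripts that cells raise when interferons reach them. A set of 34 such genes, chosen by name, was followed in inguinal white adipose tissue, the fat pad under the skin of the groin, from C57BL/6 mice aged 2 months. All 6 mouse samples had been kept at 22 °C and then at 4 °C for 7 days, so controls and knockouts alike were exposed to cold. The 3 control samples have the genotype label Foxp4fl/fl, a floxed gene for the forkhead transcription factor Foxp4. The 3 knockout samples are labelled Foxp4AdipoQdelta/delta; the name points to deletion by Cre under the promoter of adiponectin (Adipoq), a gene of mature adipocytes. Immune, vascular and stromal cells of the pad are not targets of that promoter, and the label states no Cre for the controls, so Cre and the loss of Foxp4 cannot be told apart. Of the 34 genes, 32 were found among the 21900 gene symbols measured, and Mx1 and Mx2 were not analysed here. A mean of at least 1 FPKM (fragments per kilobase of exon, scaled to library depth) in either genotype was required for testing. It left 30 members among 10787 tested genes, and no member passed through 1 genotype only.

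Type I interferons bind the receptor made of Ifnar1 and Ifnar2, and the Janus kinases Jak1 and Tyk2 then activate factors such as Stat2, which joins Irf9 on the interferon-stimulated response element of target promoters. Interferon-gamma acts through Ifngr1 and Ifngr2 and the gamma-activated sequence of its target promoters, and induces Irf1, which shares the response element. In adipose tissue, macrophages and endothelial cells as well as adipocytes respond to interferons, so a whole-tissue level adds up many cell types. Fewer cells of one type and less RNA per cell cannot be told apart in such samples.

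Promoter sequences are shown first because the members are defined by this route of induction. The core of the response element was searched as GAAA, any 2 bases and GAAA on both strands (it reads TTTC, any 2 bases and TTTC where it lies on the other strand) in the 250 bases before the start of each gene, in RefSeq promoters of GRCm38.p6, the build also called mm10. Promoters were found for 24 members, and 11 of these (45.8%) held the core, against 3.46% of 27025 genes with a promoter in that collection. The gamma-activated sequence, searched as TTCNNNGAA, which reads the same on both strands, was in 5 of 24 members (20.8%) and 8.13% of all genes. Within the 100 bases next to the start the shares were 29.2% and 1.14% for the response element, and 8.33% and 3.0% for the gamma-activated sequence. The stretches below are those of the members that were among the 10 with the smallest unadjusted p and held the core, each written 5′ to 3′ on the strand of the gene with the core nearest the start in capitals.
Igtp: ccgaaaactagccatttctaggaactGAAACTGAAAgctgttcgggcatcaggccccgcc
Ifit3: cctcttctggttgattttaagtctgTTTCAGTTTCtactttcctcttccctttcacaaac
Gbp2: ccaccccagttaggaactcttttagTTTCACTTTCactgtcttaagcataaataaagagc
Gbp3: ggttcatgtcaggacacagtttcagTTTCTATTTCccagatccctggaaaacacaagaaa
Rsad2: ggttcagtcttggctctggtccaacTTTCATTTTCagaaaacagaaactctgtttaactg
Stat2: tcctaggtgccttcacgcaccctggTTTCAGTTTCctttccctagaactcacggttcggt

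These 60-base stretches lie at chr11:58199496-58199555 (plus strand) for Igtp, chr19:34583382-34583441 (plus) for Ifit3, chr3:142620579-142620638 (plus) for Gbp2, chr3:142559980-142560039 (plus) for Gbp3, chr12:26456538-26456597 (minus) for Rsad2 and chr10:128270251-128270310 (plus) for Stat2. The core began 34 bases before the start in Igtp, 39 in Gbp3 and 59 in Gbp2, and lay farther out in Rsad2 (120), Ifit3 (122) and Stat2 (222). In Igtp, Gbp2 and Gbp3 it was thus close to the start, and in Igtp a gamma-activated sequence began 45 bases before the start. These starts are those of the promoter collection. In the GENCODE M21 annotation Gbp2 begins at 142620602, within the stretch shown and just before the core. For Ifit3 and Stat2 the 50 bases after the start were not found in an annotated transcript. Ifit2, also among the 10, held only the gamma-activated sequence. Iigp1, Parp14 and Oas2, the rest of the 10, had no promoter in the collection and were not searched. A match is a stretch of letters and does not show binding, and its absence from this window says nothing of the factors.

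Foxp4 itself was measured at 5.76, 4.01 and 4.62 FPKM in control replicates 1 to 3 and at 1.92, 1.71 and 1.64 FPKM in the knockouts, lower in every knockout library than in any control (log2 fold change -1.06, SE 0.12, adjusted p = 0.070 in limma). The libraries carried 13180585 to 15998330 reads recovered on genes. For the 29 members with recovered reads, between 43 and 1063 reads lay behind each value. Nothing in the labels ties each sample to its own mouse, and p-values then measure only the spread between these samples, which may be technical. Control replicate 3 stood apart for these genes: it was the highest of all 6 libraries in 28 of 30 tested members (93.3%), against 34.5% of all genes tested. It was the highest of the controls alone in the same 28 members, against 48.4% of all genes tested. In the other 2 members, Parp9 and Dtx3l, control replicate 1 was highest. No knockout was the highest library for any tested member.

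Levels of the interferon-stimulated genes were slightly lower in the knockouts, and no single member passed the test over all genes. Of 30 tested members, 28 had a negative log2 fold change (66.0% of all genes tested did), and the median was -0.30 against -0.08 over all genes. At an unadjusted p of 0.05 in limma, 11 members (36.7%) had lower levels in knockouts, where 17.1% of all genes tested did, and 0 had higher levels, where 6.98% did. Every knockout lay below every control in 15 members (50%), a pattern found in 22.7% of all genes tested, and above every control in 0, against 8.48%. With Benjamini-Hochberg adjustment 0 members passed 0.05, in limma and in voom on recovered reads alike, and the lowest adjusted p was 0.082 in limma. In the same limma fit 1 of the 10787 genes passed (0.00927%). At an unadjusted p of 0.05 in voom 11 of 29 members were lower, where 2576 of 10674 genes tested passed in either direction. The share of all genes lower in voom is not given here, so the 11 have no matching background. The background itself leaned towards lower values in knockouts.

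The count of members at an unadjusted p of 0.05 hung on single libraries. Without control replicate 3 it was 6 of 30 (background 14.1%), without knockout replicate 1 it was 6 (12.6%), without knockout replicate 3 it was 7 (12.5%), without knockout replicate 2 it was 8 (10.2%), without control replicate 1 it was 11 (14.5%), and without control replicate 2 it was 17 (19.0%). After median-of-ratios scaling of the libraries, 6 members were lower at that p (background 10.4%), 8 were without overlap between genotypes (13.9%), 27 were below 0 (52.5%) and the median was -0.23, against -0.01 over all genes tested. Summed over the 32 genes, the level was 191, 178 and 230 FPKM in controls and 150, 156 and 164 FPKM in knockouts. The sums did not overlap, and the gap between the lowest control and the highest knockout was smaller than the distance of control replicate 3 from the other controls. Within genotypes the members varied more among controls: the highest control was in the median 1.47 times the lowest, and the highest knockout 1.21 times the lowest, with ratios of 1.25 and 1.18 over all genes tested.

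**Figure D1:**
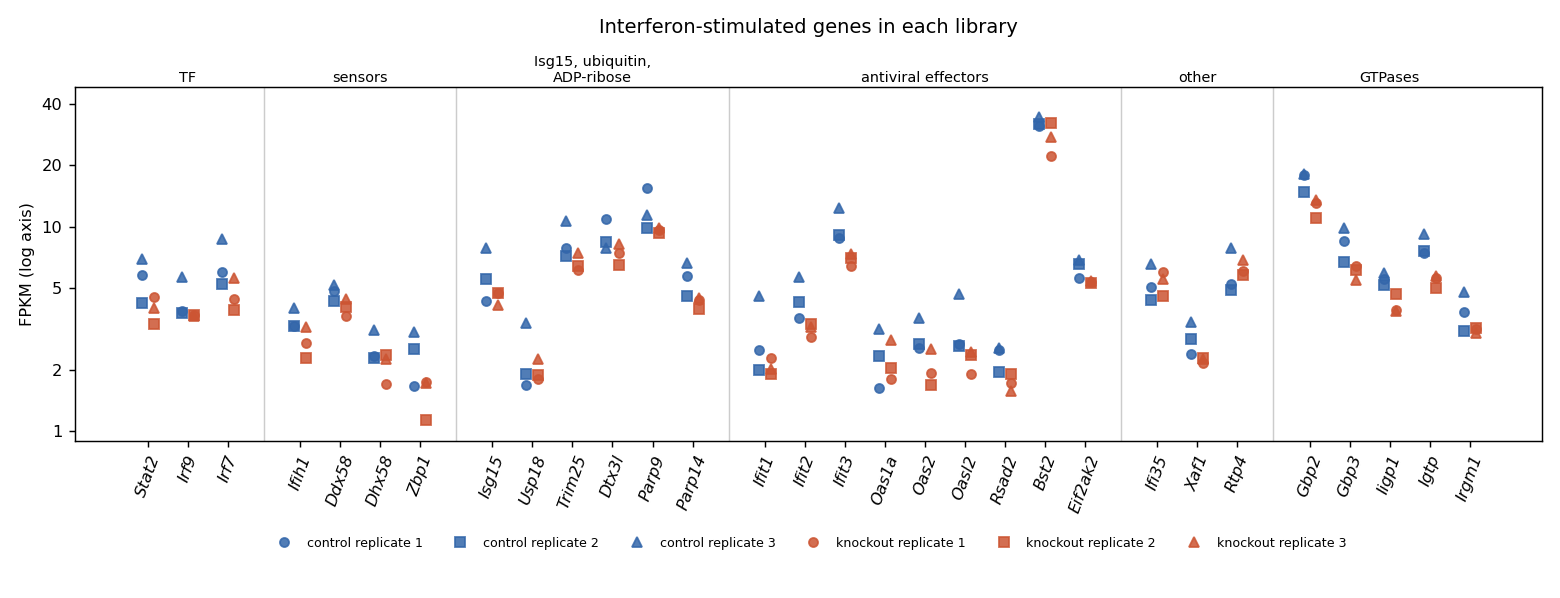
FPKM (log axis) of the 30 tested interferon-stimulated genes in each of the 6 libraries, grouped by role (TF, transcription factors), with controls in blue and knockouts in red and 1 marker shape per replicate number. The blue triangle of control replicate 3 is the highest point in 28 of the 30 genes.

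Of the 5 GTPases, 4 were lower at an unadjusted p of 0.05 and without overlap between genotypes (17.1% and 22.7% of all genes tested). These proteins, the guanylate-binding and immunity-related GTPases, attack the vacuoles in which intracellular pathogens live and are strongly induced by interferon-gamma. Igtp (chromosome 11, 58199556 to 58207591, plus strand), an immunity-related GTPase, was at 7.41, 7.61 and 9.20 FPKM in controls and 5.62, 5.03 and 5.75 FPKM in knockouts. The control values were above 7 and the knockout values below 6. The gap between them was larger than the spread within the knockouts but smaller than the spread within the controls. The log2 fold change of Igtp was -0.49 (SE 0.10, 95% interval -0.72 to -0.25), the most negative of the members, with an unadjusted p of 0.0018 and an adjusted p of 0.082 in limma. Iigp1 (chromosome 18), of the same family, had 5.56, 5.19 and 5.91 FPKM in controls and 3.91, 4.68 and 3.87 FPKM in knockouts, a log2 fold change of -0.35 (SE 0.09, adjusted p = 0.10 in limma). Knockout replicate 2 was its highest knockout and still lay below the lowest control.

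Gbp2 (chromosome 3), the GTPase member with the highest level, was at 17.9, 14.9 and 18.0 FPKM in controls and 13.1, 11.0 and 13.4 FPKM in knockouts. Its neighbour Gbp3 was at 8.52, 6.71 and 9.80 FPKM in controls and 6.42, 6.11 and 5.48 FPKM in knockouts. Both were without overlap, though for Gbp3 control replicate 2 came close to knockout replicate 1. The log2 fold changes were -0.41 for Gbp2 (SE 0.11, adjusted p = 0.11 in limma) and -0.40 for Gbp3 (SE 0.13, adjusted p = 0.14). Irgm1, which regulates the other immunity-related GTPases, differed less, with a log2 fold change of -0.24 (unadjusted p = 0.11 in limma) and overlapping values. In the GTPases the direction did not need control replicate 3: without it Igtp had -0.40, Gbp2 -0.36, Iigp1 -0.31 and Gbp3 -0.29. Of the 5, 4 were then still lower at an unadjusted p of 0.05 (14.1% of all genes tested). That count was 3 without knockout replicate 3 (12.5%) and 5 without control replicate 2 (19.0%). Exons of Igtp overlap those of Irgm2 on the same strand in GENCODE M21, so reads in the shared bases are uncertain, as are reads of near-identical members of these families.

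**Figure D2:**
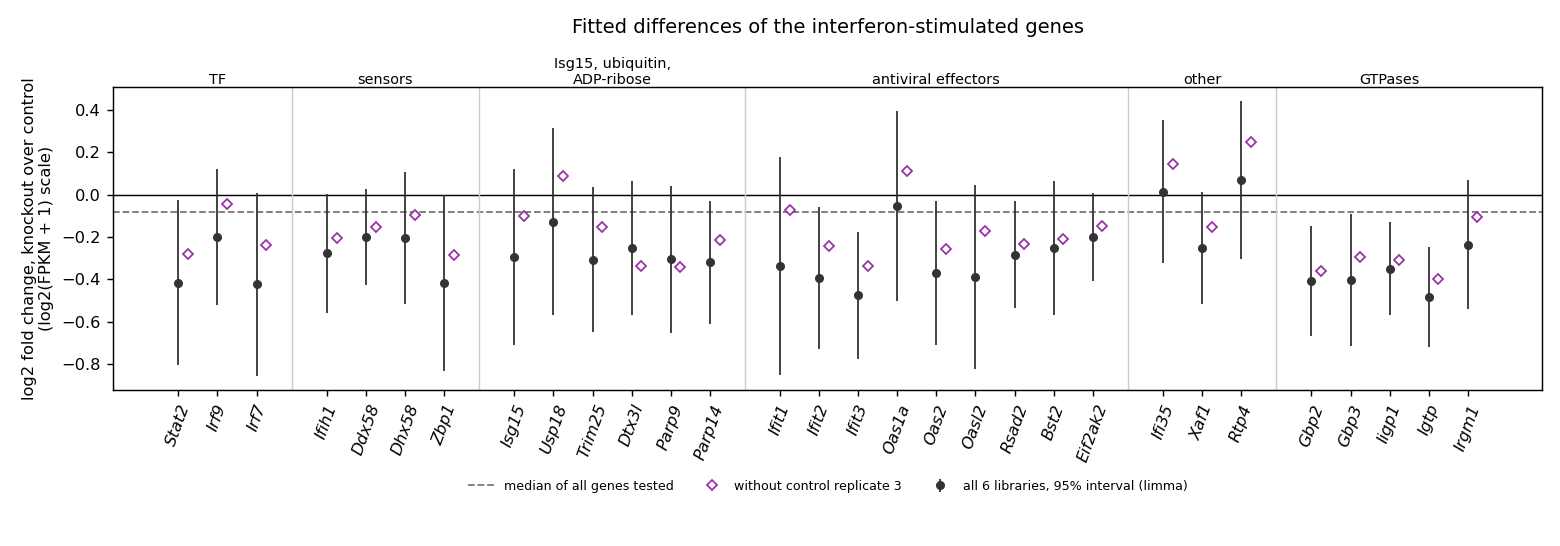
Log2 fold change (knockout over control, log2(FPKM + 1) scale) of the 30 tested members by role (TF, transcription factors), with 95% intervals from limma as bars and the value without control replicate 3 as an open diamond. The 5 GTPases at the right stay below 0 without that library, while Usp18, Oas1a, Ifi35 and Rtp4 are then above 0.

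Among the antiviral effectors all 9 tested members were below 0, with a median log2 fold change of -0.34; 4 had an unadjusted p under 0.05 and 6 were without overlap (66.0%, 17.1% and 22.7% of all genes tested). The count of 4 was 1 without control replicate 3 (14.1% of all genes tested), where the median was -0.21, and 2 after median-of-ratios scaling (10.4%). Ifit3 (chromosome 19, 34583531 to 34588731, plus strand), one of the tetratricopeptide proteins that act against viral RNA, was at 8.83, 9.14 and 12.3 FPKM in controls and 6.39, 6.99 and 7.35 FPKM in knockouts. It had the second most negative value of the 30 members, -0.47 (SE 0.13). Its limma adjusted p was 0.11, and the value was -0.34 without control replicate 3. Its paralog Ifit3b, at 1.20 to 3.07 FPKM, can share reads with it and had overlapping groups. Ifit2, of the same cluster, was at 3.58, 4.27 and 5.70 FPKM in controls and 2.89, 3.36 and 3.21 FPKM in knockouts, again without overlap. Ifit1, which binds viral RNA caps, showed how much control replicate 3 can weigh: it was at 2.49, 1.98 and 4.58 FPKM in controls and 2.29, 1.90 and 2.01 FPKM in knockouts. For Ifit1 the log2 fold change was -0.34 with that library and -0.07 without it. The log2 fold change of Ifit2 was -0.39, and -0.24 without that library.

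Oas2, which makes the oligoadenylates that activate RNase L, was at 2.55, 2.66 and 3.58 FPKM in controls and 1.93, 1.67 and 2.52 FPKM in knockouts, with the highest knockout just under the lowest control. Oas1a, of the same enzyme family and with near-identical copies in the genome, had means of 2.37 and 2.21 FPKM and a log2 fold change of -0.06, which was 0.01 after median-of-ratios scaling. Rsad2, also called viperin, an enzyme that blocks viral RNA synthesis, was at 2.49, 1.94 and 2.55 FPKM in controls and 1.72, 1.89 and 1.57 FPKM in knockouts. The values for Rsad2 touch: control replicate 2 was 1.94 and knockout replicate 2 was 1.89. The log2 fold changes were -0.37 for Oas2 (unadjusted p = 0.036, adjusted p = 0.18 in limma) and -0.28 for Rsad2 (0.032 and 0.17). Bst2, or tetherin, which holds budding virus at the cell surface, had the highest level of the whole set, at 30.9, 31.6 and 34.2 FPKM in controls and 22.1, 32.3 and 27.3 FPKM in knockouts. Knockout replicate 2 was above 2 of the controls for Bst2, and its log2 fold change of -0.25 had an unadjusted p of 0.10 in limma. Eif2ak2, the kinase that halts translation on double-stranded RNA, and Oasl2 had -0.20 and -0.39, both without overlap and with unadjusted p of 0.056 and 0.073.

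Of the 3 transcription factors among the members, 1 was lower at an unadjusted p of 0.05 (17.1% of all genes tested), a count that was 0 without control replicate 3 and 0 after median-of-ratios scaling. Stat2, a factor of type I signalling, was at 5.82, 4.24 and 6.95 FPKM in controls and 4.52, 3.33 and 4.01 FPKM in knockouts. Knockout replicate 1 lay above control replicate 2, so the groups overlapped, and the log2 fold change was -0.42 (SE 0.17, unadjusted p = 0.040, adjusted p = 0.19 in limma). Irf7, which amplifies the production of type I interferons, was at 6.03, 5.26 and 8.72 FPKM in controls and 4.44, 3.91 and 5.63 FPKM in knockouts, also with overlap. The fitted log2 difference for Irf7 was -0.42 and its unadjusted p 0.053 in limma. Irf9, the DNA-binding partner of Stat2, was nearly level in 5 libraries, at 3.64 to 3.89 FPKM, and at 5.69 FPKM in control replicate 3. The Irf9 knockouts were below all controls by a narrow margin, and its log2 fold change of -0.20 was -0.04 without that library. Exons of Irf9 overlap those of Rnf31, and exons of Irf7 those of Phrf1.

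All 4 nucleic acid sensors were below 0, with log2 fold changes of -0.42 to -0.20, and 1 had an unadjusted p under 0.05 (66.0% and 17.1% of all genes tested). The count was 0 without control replicate 3 and 0 after median-of-ratios scaling. The sensor at that p was Zbp1, which binds Z-form nucleic acids and can start cell death, at 1.67, 2.52 and 3.04 FPKM in controls and 1.74, 1.13 and 1.72 FPKM in knockouts (unadjusted p = 0.049, adjusted p = 0.21 in limma). Control replicate 1 of Zbp1 lay below 2 of the knockouts. Ddx58, the cytoplasmic RNA sensor also called Rigi and the most abundant of the 4, was at 4.83, 4.35 and 5.19 FPKM in controls and 3.64, 4.05 and 4.43 FPKM in knockouts. Its groups overlapped, and its log2 fold change was -0.20 (unadjusted p = 0.073). The related sensor Ifih1 had -0.28 without overlap, and Dhx58, which modulates both, had -0.20 with overlap.

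Isg15 is a ubiquitin-like protein joined to other proteins by the ligase Herc6 and taken off by Usp18, which also dampens signalling at the type I receptor. In this group with the ubiquitin and ADP-ribose enzymes all 6 tested members were below 0, and 1, Parp14, was lower at an unadjusted p of 0.05, a share (16.7%) near the 17.1% of all genes tested. That count was 0 after median-of-ratios scaling, and without control replicate 3 the 1 gene was Dtx3l, named after its value was seen. Parp14, a mono-ADP-ribosyltransferase, was at 5.73, 4.57 and 6.62 FPKM in controls and 4.36, 3.97 and 4.50 FPKM in knockouts. No knockout reached the lowest control, and Parp14 had a log2 fold change of -0.32 (SE 0.12, limma adjusted p = 0.18). Parp9, the most abundant gene of the group, was at 15.5, 9.90 and 11.4 FPKM in controls and 9.58, 9.35 and 9.85 FPKM in knockouts. The lowest control and the highest knockout of Parp9 were nearly equal, and its log2 fold change was -0.30 (unadjusted p = 0.076). The ligase gene Dtx3l, its partner in the protein complex, lies beside it with exons that overlap on the opposite strand, so reads of the pair may not have been kept apart; it had a log2 fold change of -0.25. Isg15 itself averaged 5.91 ± 1.78 FPKM among controls and 4.52 ± 0.33 FPKM among knockouts (SD, n = 3). The log2 fold change of Isg15 was -0.30, and -0.10 without control replicate 3. Usp18 had -0.13 with all 6 libraries and 0.09 without that one. Trim25, a ubiquitin ligase that acts on Ddx58, had -0.31 (unadjusted p = 0.071). Herc6 was under the level for testing, at 0.57, 0.88 and 1.32 FPKM in controls and 0.55, 0.55 and 0.58 FPKM in knockouts.

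Of the 3 tested members outside these roles, 2 went against the rest. Rtp4, a chaperone of receptor transport with antiviral action, was at 5.26, 4.91 and 7.86 FPKM in controls and 6.06, 5.80 and 6.88 FPKM in knockouts. All knockouts of Rtp4 were above control replicates 1 and 2 and below control replicate 3. Ifi35 was at 5.10, 4.40 and 6.54 FPKM in controls and 5.99, 4.58 and 5.55 FPKM in knockouts, with the 2 groups interleaved. The log2 fold changes were 0.07 for Rtp4 (95% interval -0.31 to 0.44) and 0.01 for Ifi35 (-0.32 to 0.35), and both signs turned when 1 library was left out. Without control replicate 3 Rtp4 had 0.25, higher at an unadjusted p of 0.042 in limma. Xaf1, a pro-apoptotic protein, had -0.25 without overlap. Ifi44 was too low for testing and the most uneven member, at 0.17, 1.13 and 1.33 FPKM in controls and 0.40, 1.25 and 0.87 FPKM in knockouts.

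Neighbouring members had like values in most cases, but all 30 tested members lay between -0.49 and 0.07, and distant members were not compared. Ifit1, Ifit2 and Ifit3 lie within 99.3 kilobases of chromosome 19, with log2 fold changes of -0.47 to -0.34. Without control replicate 3 these were -0.07 for Ifit1, -0.24 for Ifit2 and -0.34 for Ifit3. Parp14, Dtx3l and Parp9 lie within 140 kilobases of chromosome 16 (-0.32 to -0.25), and Gbp3 and Gbp2 within 78.0 kilobases of chromosome 3 (-0.41 to -0.40). Oas2 and Oas1a, within 177 kilobases of chromosome 5, differed, at -0.37 and -0.06. Among the tested members with a promoter, the 11 holding the response element core had a median of -0.34. Of these 11, 6 were lower at an unadjusted p of 0.05 (17.1% of all genes tested). For the 11 without it the median was -0.25 and 1 was lower at that p. The gamma-activated sequence went the other way in its medians, at -0.25 for the 5 holders (2 lower at that p) and -0.30 for the 17 without it (5 lower). These describe small sets whose ranges overlapped, in the fit of all 6 libraries, and no difference between them was tested.

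**Figure D3:**
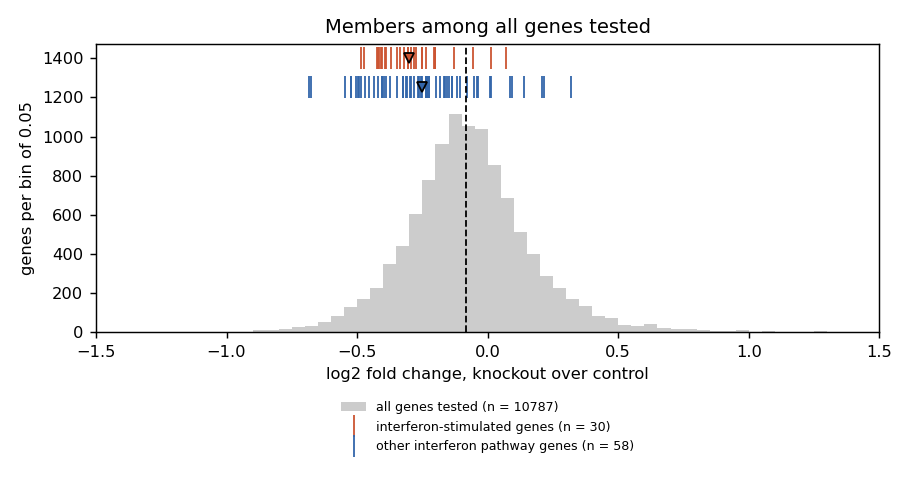
Histogram of the log2 fold changes of all 10787 genes tested (10 genes beyond 1.5 in either direction are not drawn), with the 30 members as red ticks and 58 other interferon pathway genes as blue ticks above it. Triangles mark the list medians of -0.30 and -0.25, both to the left of the dashed median of all genes at -0.08.

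The wider interferon pathway was read from a list of 75 genes chosen by role, of which 58 were tested. No gene of this list passed an adjusted p of 0.05 in limma. At an unadjusted p of 0.05 the main limma fit gave 20 with lower levels and 0 with higher levels (17.1% and 6.98% of all genes tested). Voom on recovered reads also gave 20 with lower levels, where 2576 of 10674 genes tested passed in either direction. Every knockout lay below every control in 22 of the 58 (22.7% of all genes tested), and the median log2 fold change was -0.25. Gbp5, Gbp6 and Oasl1 passed the filter on low values through the controls only and so had to be lower in knockouts, and 2 of these 3, Gbp5 and Oasl1, are among the 20. Leaving out all 3 gave 18 of 55 with lower levels at that p and 20 without overlap. The count of 20 was 12 without control replicate 3 (14.1% of all genes tested) and 15 after median-of-ratios scaling (10.4%). The 0 with higher levels did not hold in every fit. After that scaling Ifi27 (0.40), Mavs (0.29) and Ticam1 (0.28) were higher at an unadjusted p of 0.05 in limma. Without control replicate 3, Ticam1 (0.28) and Sting1 (0.23) were. These genes were named after their values were seen. The ligands were near or at the bottom of the scale: of 9 interferon genes, 7 were listed at 0 in every library, and Ifnk and Ifne had a value in 1 control each (0.17 and 0.28 FPKM). Trex1, a nuclease of the sensing list, was also listed at 0 throughout, so a 0 in these values need not mean that a transcript was absent.

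Of 5 tested receptor genes, 1 was lower at an unadjusted p of 0.05, a share near the 17.1% of all genes tested. That was Ifngr1, the ligand-binding chain for interferon-gamma, at 50.7, 49.5 and 45.9 FPKM in controls and 41.2, 36.3 and 38.6 FPKM in knockouts. Here control replicate 3 was the lowest control, and all knockouts were below it. Ifngr1 differed by -0.33 on the log2 scale (SE 0.08, limma adjusted p = 0.098), and by -0.37 without that control. Its partner chain Ifngr2 averaged 7.80 ± 1.68 FPKM among controls and 8.22 ± 0.27 FPKM among knockouts (SD, n = 3). Of the type I chains, Ifnar1 was at 8.86, 7.75 and 11.3 FPKM in controls and 8.39, 7.42 and 6.48 FPKM in knockouts, and Ifnar2 had means of 16.1 and 17.2 FPKM. Both type I chains and both interferon-gamma chains were thus present, with 1 of each pair lower in mean in the knockouts and 1 slightly higher. Il10rb, a chain shared with the interferon-lambda and interleukin-10 receptors, had means of 4.86 and 3.99 FPKM with overlap. Ifnlr1, the chain specific to interferon-lambda, was at 0.15 FPKM or less in every library.

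**Figure D4:**
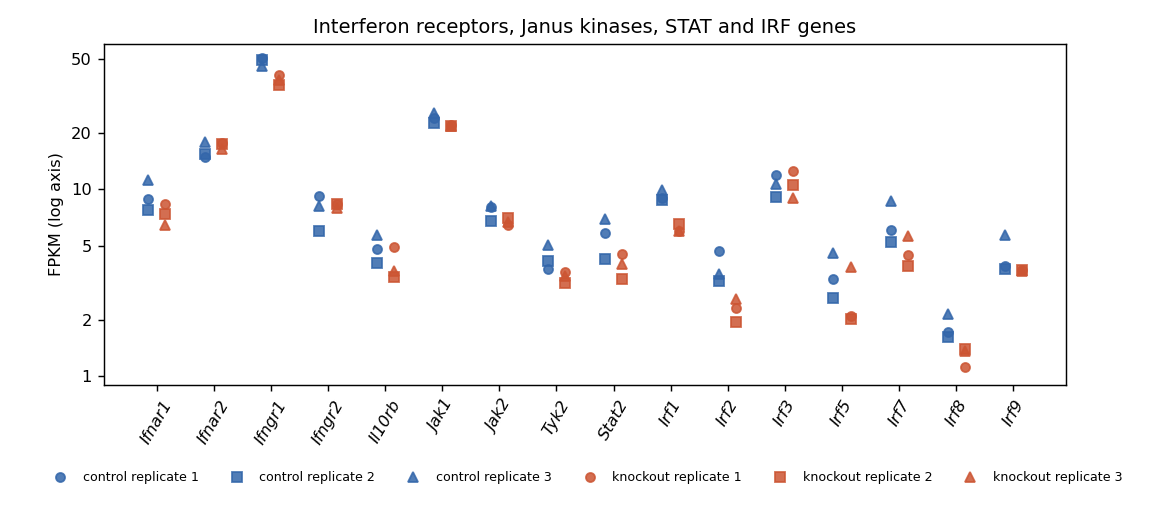
FPKM (log axis) of interferon receptor, Janus kinase, STAT and IRF genes in each library, with controls in blue, knockouts in red and 1 marker shape per replicate number. Ifngr1 and Irf1 show separate groups, at 45.9 to 50.7 against 36.3 to 41.2 FPKM and 8.81 to 9.97 against 5.97 to 6.50 FPKM, while the groups of Irf3 overlap.

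Of 10 tested Janus kinase, STAT, IRF and Socs genes, 4 were lower at an unadjusted p of 0.05 (17.1% of all genes tested). They were Irf1, Irf2, Irf8 and Tyk2, with Irf2 and Tyk2 named after their values were seen. The count was 2 without control replicate 3 (14.1% of all genes tested) and 2 after median-of-ratios scaling (10.4%). Irf1, the factor induced by interferon-gamma, was at 9.05, 8.81 and 9.97 FPKM in controls and 5.97, 6.50 and 5.98 FPKM in knockouts. The genotypes were far apart relative to their spread, with a log2 fold change of -0.52 (SE 0.08, 95% interval -0.71 to -0.34), an unadjusted p of 0.00027 and an adjusted p of 0.070 in limma. Without control replicate 3 the value was -0.48. Irf8, a factor of myeloid cells, had means of 1.83 ± 0.28 and 1.30 ± 0.16 FPKM (SD, n = 3). Irf3, which is activated by sensing rather than by interferon, had means of 10.6 and 10.7 FPKM and interleaved libraries.

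Among 32 tested genes that interferons induce outside the 34 members, 13 were lower at an unadjusted p of 0.05 (17.1% of all genes tested). The count was 7 without control replicate 3 (14.1%). Without Gbp5, Gbp6 and Oasl1, which passed through the controls only, the count was 11 of 29. Of the 32 genes, 2 had log2 fold changes above 0. The larger was 0.32 for Ifi27 (SE 0.14, unadjusted p = 0.055 in limma), whose genotypes overlapped. Mean levels of Ifi27 were 359 FPKM for controls against 448 FPKM for knockouts. Summed over this list, levels overlapped as well, at 981 to 1412 FPKM for controls against 1137 to 1316 FPKM for knockouts. The peptide transporter gene Tap1 was at 9.02, 8.71 and 9.80 FPKM in controls and 5.96, 4.69 and 5.50 FPKM in knockouts, a log2 fold change of -0.68 (SE 0.10, adjusted p = 0.070 in limma). Psmb9, a subunit of the immunoproteasome that shares exon bases with Tap1 on the other strand, was at 5.72, 8.06 and 7.71 FPKM in controls and 3.95, 3.95 and 4.22 FPKM in knockouts. Psmb9 had a log2 fold change of -0.68 as well (adjusted p = 0.077). Both differences were larger in size than that of any of the 30 tested members, and the genotypes did not overlap. Irgm2, a GTPase of the Irgm1 family, was at 11.5, 10.1 and 10.7 FPKM in controls and 7.61, 6.80 and 7.16 FPKM in knockouts, and it shares exon bases with Igtp. Gbp7 was at 5.31, 4.61 and 6.07 FPKM against 3.42, 3.42 and 3.55 FPKM, and Slfn2, a schlafen protein of leukocytes, at 7.29, 7.36 and 9.47 FPKM against 5.49, 5.97 and 4.84 FPKM. The log2 fold changes were -0.52 for Irgm2, -0.50 for Gbp7 and -0.49 for Slfn2, with adjusted p of 0.070, 0.082 and 0.095 in limma. Without control replicate 3 they were -0.53, -0.41 and -0.38.

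All 12 macrophage markers were lower at an unadjusted p of 0.05 and without overlap (17.1% and 22.7% of all genes tested), 0 passed the adjusted threshold in limma, and their summed level was 607 to 813 FPKM in controls and 387 to 499 FPKM in knockouts. The highest of them were lysozyme (Lyz2), at means of 266 and 164 FPKM, and the complement gene C1qa, at 130 and 79.2 FPKM. The median log2 fold change of these markers was -0.63, larger in size than that of the interferon-stimulated genes. Without control replicate 3, 11 of the 12 were lower at an unadjusted p of 0.05 in limma (14.1% of all genes tested). After median-of-ratios scaling 11 of 12 were (10.4%). The part of macrophage content in the lower values of the members was not tested. Endothelial markers summed to 65.1 to 127 FPKM in controls and 71.8 to 87.2 FPKM in knockouts, and progenitor and fibroblast markers to 263 to 527 and 235 to 284 FPKM. In both lists control replicate 3 was the highest library for every marker (5 of 5 and 6 of 6), as it was in 28 of 30 members. It was also the highest library for 10 of 12 macrophage markers (34.5% of all genes tested). Progenitor and fibroblast markers were lower at an unadjusted p of 0.05 in 4 of 6 and endothelial markers in 1 of 5 (17.1% of all genes tested). These counts were 2 of 6 and 0 of 5 without control replicate 3 (14.1%), and the endothelial median log2 fold change was then 0.19 in place of -0.14. After median-of-ratios scaling 2 of 6 progenitor and fibroblast markers were lower at that p (10.4%).

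The T cell list summed to at most 1.95 FPKM in any library, the NK cell list to at most 3.52 and the B cell list to at most 3.28. Among plasmacytoid dendritic cells, which make much type I interferon, the defining marker Siglech was at 0.41 to 1.01 FPKM and the list summed to 1.40 to 6.00 FPKM, most of the latter from Cox6a2, a gene that muscle also expresses. Cox6a2 passed the filter on low values through the knockouts only (mean of 0.96 FPKM in controls), so no test of it is given. Conventional dendritic cell markers summed to 8.19 to 10.3 FPKM in controls and 7.38 to 7.90 FPKM in knockouts, without overlap, and 0 of the 2 tested were lower at an unadjusted p of 0.05. Neutrophil markers summed to 5.16 to 31.4 FPKM in controls and 4.61 to 14.2 FPKM in knockouts, and 1 of 3 tested was lower at that p (17.1% of all genes tested). It was Retnlg, named after its values were seen, at 2.27, 3.46 and 2.51 FPKM against 0.34, 1.14 and 1.78 FPKM. Without control replicate 3, the lowest control of S100a8 and S100a9, all 3 were lower at that p (14.1% of all genes tested). S100a9 reached 19.0 FPKM in control replicate 2. Mature adipocyte markers, which define the tissue, summed to 6002 to 7260 FPKM in controls and 5695 to 5947 FPKM in knockouts. Of the 6, 2 were lower at an unadjusted p of 0.05 (17.1% of all genes tested), or 1 after median-of-ratios scaling (10.4%). Skeletal muscle markers summed to 14.3 to 59.9 FPKM in controls and to 17.9, 86.0 and 268 FPKM in knockout replicates 1 to 3. All 5 had log2 fold changes above 0 (3666 of all 10787 genes tested did), with a median of 1.14. At an unadjusted p of 0.05 in limma 0 were higher (6.98% of all genes tested). When 1 library was left out, their values fell as low as 0.09 (Acta1) to 0.46 (Mylpf).

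**Figure D5:**
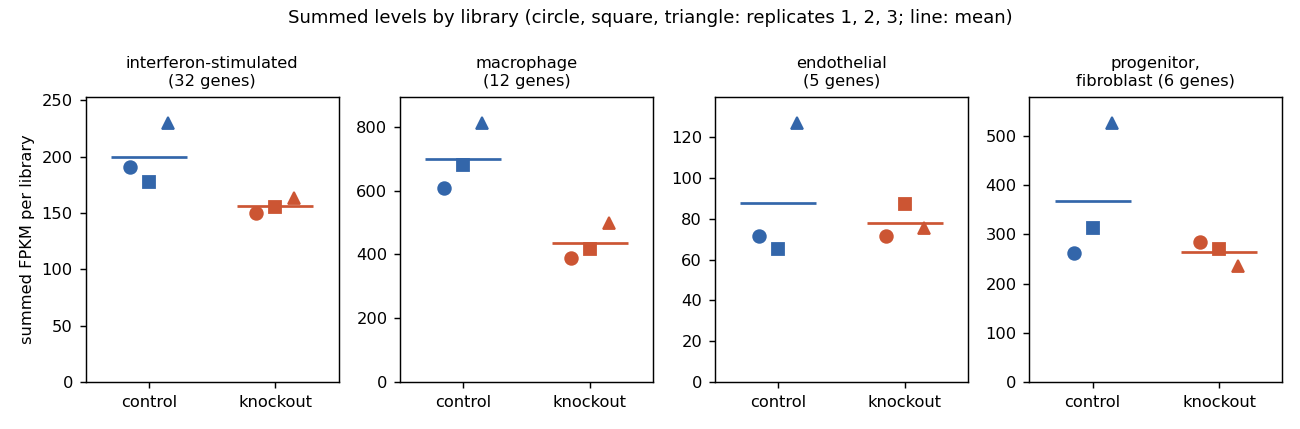
Summed FPKM per library of the interferon-stimulated genes and of the macrophage, endothelial and progenitor markers, with 1 point per library, 1 marker shape per replicate number and a line at the mean of each genotype. Macrophage sums separate the genotypes (607 to 813 against 387 to 499 FPKM), and control replicate 3 (blue triangle) is the highest point in all 4 panels.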

How the data were processed

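Per the labels' protocols, messenger RNA was made into stranded libraries and sequenced on an Illumina HiSeq. Trimming, alignment and counting tools named in the submitters' processing notes are cutadapt, HISAT2 and HTSeq, with the build mm10. Versions, annotation and strand setting: not given in the sources used here. The authors deposited FPKM per gene, 1 column per sample (21936 rows). Where a symbol was repeated, the row with the highest mean was used and 36 rows were left out. Reads were recovered from FPKM, GENCODE M21 exon lengths and 1 factor per library; 97.92 to 98.09% of values up to 50 reads were whole within 0.05. Depth was 13180585 to 15998330 recovered reads.

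Genes were tested on log2(FPKM + 1) in all 6 libraries by limma 3.58.1 (R 4.3.3), moderated with a trend, in a model of genotype alone, with Benjamini-Hochberg adjustment over 10787 genes. Fold changes on this scale understate those of low genes. An exact two-sided test of 3 against 3 cannot go below 0.10. The fit was also run on simulated data, and the outcome is not reported here. Alternatives were another pseudocount, filters, scalings, voom, a replicate block and leaving out each library. Values in every library are given for the 10 members with the smallest p, the most abundant of each role group, members opposite in sign to the median and, by the same rule, pathway genes with the smallest p; values printed for other members were chosen after they were seen. The members and lists were chosen with earlier results of these data known. Values of 1 pathway gene that this rule names are not reported here.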

Additional observations from a re-analysis of the deposited data

How the results depend on the processing

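No member passed an adjusted p of 0.05 in any of the 14 alternative fits. The median log2 fold change of the members kept its sign in each, at -0.38 to -0.21 when 1 library was left out. None of the named genes was past an adjusted p of 0.05 in the main limma fit, and the alternatives reuse the same libraries. Keeping direction and side of that threshold is thus a weak check. Of 607 values of named genes under the alternatives, 594 kept both. The exceptions were Oas1a under median-of-ratios scaling (0.0058) and, when 1 library was left out, Oas1a (-0.22 to 0.11), Usp18 (-0.27 to 0.089), Ifi35 (-0.096 to 0.15), Rtp4 (-0.043 to 0.25), Ifngr2 (-0.074 to 0.21) and Irf3 (-0.11 to 0.12). The 11 members lower at an unadjusted p of 0.05 became 6 under median-of-ratios scaling, 4 of the 13 left at 5 FPKM, where fewer genes are tested, and 6 to 17 when 1 library was left out. The 15 members without overlap became 8 under median-of-ratios (13.9% of all genes tested) and 9 under upper-quartile scaling. They became 6 at 5 FPKM, and 16 to 21 without 1 library, where fewer samples make separation easier. The 20 other pathway genes became 9 of 25 at 5 FPKM and 12 to 26 without 1 library. At 5 FPKM 1554 of 5970 genes had an unadjusted p under 0.05 in limma in either direction. Other shares of all genes without overlap, and shares lower at 5 FPKM or with the replicate block, are not given here. Those counts thus do not set the members apart from other genes. Over all genes the 1 call at an adjusted p of 0.05 in limma became 0 without a filter, 0 with the replicate block and 0 in voom (2980, 2218 and 2576 genes at an unadjusted p of 0.05), 2 at 5 FPKM, and 0 to 5 without 1 library; the cause was not tested. Same-numbered samples did not deviate together (correlations of 0.06, 0.03 and -0.25), so the numbers give no pairing; with the block 13 members were lower at an unadjusted p of 0.05. Values of members under 5 FPKM, 17 of 30, can rest on few reads, down to 43 for Oas1a. Exon length matters as well as level: Parp14, at a mean of 4.96 FPKM, had 491 to 993 reads. Ifi35, at a mean of 5.36 FPKM, had 105 to 182.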
